A study of Saccharomyces cerevisiae with 16 samples.

Results

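The comparison set the first minute after a glucose pulse against the steady state before it, in the laboratory strain CEN.PK 113-7D of the yeast Saccharomyces cerevisiae. Arrays were assigned to the groups by the time point and pulse number in their labels. The 30 s and 60 s arrays of pulses 2 and 3 formed the first-minute group (4 arrays). The arrays sampled before pulses 1, 2 and 3 formed the steady-state group (3 arrays). These are 7 of the 16 Affymetrix GeneChip arrays of the series, and pulse 1 had no array at 30 s or 60 s. All 7 came from the same wild-type strain, with no engineered allele named in the labels, grown with air in carbon-limited chemostats at 30 degrees C and pH 5, with a dilution rate of 0.05 per hour, on mineral medium whose feed held glucose and some ethanol. A chemostat receives and loses medium at equal flow, so cells stay at one growth rate with almost no free sugar. Injected within a second, the pulse brought free glucose to about 1 g per litre, or 5.56 mM, and by their labels the groups differ in whether sampling came before or after it. Per the labels, the replicates of a time point came from independent cultures and cells were quenched in liquid nitrogen. The labels do not say whether arrays with the same pulse number came from 1 culture, so the 4 first-minute arrays may stand for only 2 cultures.

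Yeast senses glucose through the receptor Gpr1 and Ras, which raise cAMP and activate protein kinase A, and through the membrane sensors Snf3 and Rgt2, which control hexose transporter genes. Glucose also shuts off the kinase Snf1, so that the repressor Mig1 silences genes for respiration, gluconeogenesis and the use of other sugars. Enzymes and kinases respond within seconds, whereas transcript levels follow only as new RNA is made and old RNA decays.

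Each array was rescaled to a mean signal of 150 after trimming 2% at each end, signals under a floor of 12 were set to 12, and log2 was taken, with 1 probe set for each of 5410 genes. Signals below are on this rescaled linear scale and differences are in log2 units, first minute minus steady state. As deposited, the trimmed means were 109.7, 325.9 and 129.4 before pulses 1, 2 and 3 and 103.9 to 136.8 in the first minute, so the array before pulse 2 stood apart in brightness. Between 1.65% and 3.42% of genes lay at the floor on the steady-state arrays and between 3.05% and 4.16% on the first-minute arrays. The ratio of 3' to 5' probe signal of ACT1, a measure of RNA integrity, was 2.27 to 3.39 and 2.19 to 2.95. None of 6 such array checks separated the groups (exact permutation test over 35 splits, lowest two-sided p = 0.2, adjusted p = 0.457, smallest p possible 0.0286). The 3' to 5' ratio of SRB4 was not among these 6 checks and was not tested. It was 6.56, 11.6 and 3.14 before pulses 1, 2 and 3 and 3.55 to 3.98 in the first minute. On that ratio the arrays before pulses 1 and 2 stood apart from the other arrays of the comparison. Genes of mating type a were detected on all 7 arrays, for example the receptor gene STE2 at 173 to 248. Of 4 alpha-specific genes, MF(ALPHA)2 was at the floor on all 7 and STE3 lay at 29.8 to 48.4, while MF(ALPHA)1 and SAG1 were above the floor at 184 to 275 and 106 to 152.

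The 3 steady-state arrays differed from each other more than the 4 first-minute arrays did. The median absolute difference per gene was 0.258 to 0.279 between steady-state arrays and 0.142 to 0.198 between first-minute arrays. The array before pulse 3 was the exception among the steady-state arrays, at only 0.142 to 0.168 from the first-minute arrays, as near to them as they were to each other. The arrays before pulses 1 and 2 lay 0.235 to 0.274 and 0.246 to 0.312 from the first-minute arrays. For 68.6% of genes the signal before pulse 3 fell inside the range of the 4 first-minute arrays, against 42.6% for the array before pulse 1 and 38.4% for the array before pulse 2. Hybridization or scan days, read from the arrays' experiment files, followed the same division. The steady-state array and both first-minute arrays of pulse 3 shared 1 day, the 2 first-minute arrays of pulse 2 shared another, and the steady-state arrays of pulses 1 and 2 had days that no first-minute array had. Day and condition therefore cannot be told apart for pulses 1 and 2, and pulse 3 alone gives a comparison within 1 day, with 1 array against 2. A limma fit of the 7 arrays with day as a fixed block, in which the difference comes from the pulse 3 day alone, had 2 residual degrees of freedom and called 0 genes (0.00%), with 184 at an unadjusted p under 0.05 and a lowest adjusted p of 0.583.

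**Figure D1:**
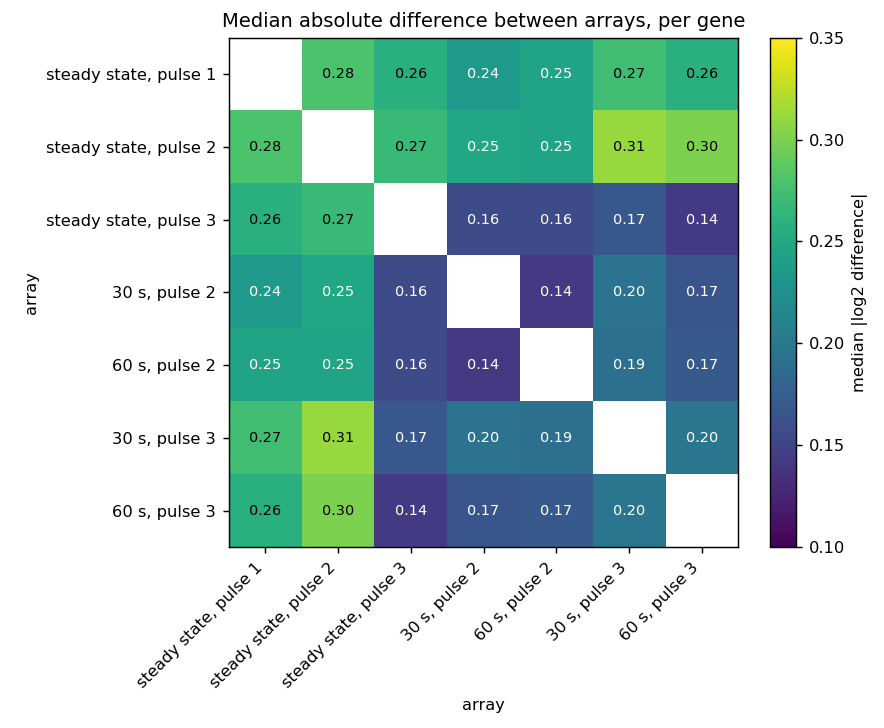
Median absolute log2 difference over 5410 genes for each pair of the 7 arrays, as a colour and a printed value (rows and columns are arrays). The steady-state array of pulse 3 lies as near to the first-minute arrays (0.14 to 0.17) as these lie to each other, while the other steady-state arrays lie farther away (0.24 to 0.31).

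No gene was found to change in the first minute beyond the spread of the arrays. By limma's moderated test with Benjamini-Hochberg adjustment over 5410 genes, 0 genes were higher and 0 lower at an adjusted p under 0.05 (0.00% called), and the lowest adjusted p was 0.623. At an unadjusted p under 0.05 there were 402 genes (7.43%), of which 150 were higher (2.77%) and 252 lower (4.66%). Differences were small, with a median absolute value of 0.147 log2 units and a median standard error of 0.16, and they ran from -1.07 to 1.28. Only 4 genes differed by 2-fold or more in their means, HMS2, KIN2 and RDN25-1 higher and YNCL0004C lower, and their intervals were wide. The precision was enough to bound most transcripts: the 95% confidence interval lay within a 2-fold change either way for 93.5% of genes, and within a 1.5-fold change for 59.7%. For the other genes a change of that size remained inside the interval, and a p that missed the threshold does not show that the signals did not differ. A signal here is a share of the RNA of a whole culture, so a change in some cells and a smaller one in all cells cannot be told apart, nor can fewer cells and less RNA per cell.

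A share of genes had first-minute signals that did not overlap the steady-state signals. These were 122 higher genes (2.26% of those tested) and 236 lower ones (4.36%). The 24 genes named next, 12 in each direction, had the smallest unadjusted p among these genes and lay above the floor on all 7 arrays, and each had an adjusted p of 0.623 by limma. Their values are therefore a description of where the largest separations lay and not a list of changed genes. Steady-state signals are given in the order of pulses 1, 2 and 3, and sets of 4 first-minute signals in the order 30 s and 60 s of pulse 2, then 30 s and 60 s of pulse 3.

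On the higher side, DNF2, SCP160 and SHE3 had the smallest p. For DNF2, a flippase that moves phospholipids across the plasma membrane, the signal was 117, 107 and 125 before pulses 1, 2 and 3. It was 174 and 162 at 30 s and 60 s of pulse 2 and 186 and 162 at the same times of pulse 3, a log2 difference of 0.56 ± 0.11 (SE; limma, adjusted p = 0.623). All 4 first-minute arrays were above all 3 before the pulse, and both pulses gave a similar difference (0.65 and 0.48). SCP160, which encodes an RNA-binding protein found on polysomes, had steady-state signals of 284, 281 and 269, close to each other. In the first minute it had 389.9 and 379 in pulse 2 and 359.8 and 351 in pulse 3, with a difference of 0.41 ± 0.08 (adjusted p = 0.623). Here the 2 pulses were again alike, at 0.45 and 0.40. SHE3, the adaptor that ties localized mRNA to the myosin Myo4, had 66, 53.4 and 49.1 before the pulses, then 104 and 111 in pulse 2 and 82.1 and 98.3 in pulse 3. Its difference of 0.82 ± 0.16 had a 95% confidence interval of 0.44 to 1.19, and the values per pulse were 1.01 and 0.87. Among the 12 higher genes it had the second largest difference.

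The largest difference of the 12 belonged to MAE1, the mitochondrial malic enzyme, and there the steady-state arrays disagreed. Its signal was 83.5, 97.4 and 175 before pulses 1, 2 and 3 and 231, 199.6, 205 and 226 in the first minute of pulses 2 and 3. The pooled difference was 0.93 ± 0.24, but it was 1.14 in pulse 2 and 0.30 in pulse 3, whose steady-state array was already high. TAE1, an N-terminal protein methyltransferase, had the same shape, with 140.4, 109.5 and 177 at steady state and 258, 221, 234 and 198 in the first minute. Its difference was 1.12 in pulse 2 and 0.28 in pulse 3. In SGE1, a drug efflux transporter, the steady-state signals of 172, 132 and 231 were also spread widely below first-minute signals of 258, 249.8, 312 and 331. The narrower group of GOS1 (Golgi SNARE), RGC1 (regulator of the Fps1 glycerol channel), YRA1 (mRNA export factor), RPG1 (subunit of translation initiation factor eIF3), CPP2 and YNL195C had pooled differences of 0.33 to 0.51. GOS1 and RPG1 came out nearly equal in both pulses, at 0.38 and 0.39 for GOS1 and 0.27 and 0.28 for RPG1.

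On the lower side, BIL1 had the smallest unadjusted p of the 24 genes. Its signal was 65.2, 61.2 and 46.6 before the pulses and 29.7, 34.1, 31.3 and 34.1 in the first minute of pulses 2 and 3, a difference of -0.82 ± 0.16 (limma, adjusted p = 0.623). The gap between the groups was smallest at the array before pulse 3, and the difference was -0.94 in pulse 2 and -0.51 in pulse 3. PFK26, the kinase that makes the sugar bisphosphate that activates glycolysis, was the one gene of sugar metabolism among the 24. Its signals of 329, 231 and 221 at steady state stood above 188 and 162 in pulse 2 and 144 and 176 in pulse 3, a difference of -0.62 ± 0.16 with values per pulse of -0.40 and -0.48. The array before pulse 1 was the highest of the 7, well above the other steady-state arrays. MIC19, a subunit of the MICOS complex that shapes the inner mitochondrial membrane, had 213, 214 and 172 before and 141, 138, 152 and 128 after. Its difference was -0.51 ± 0.12, again larger in pulse 2 (-0.62) than in pulse 3 (-0.30).

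Several of the lower genes were dim, near the floor of 12. SPO22 (a meiosis gene), NSE3 (a subunit of an SMC complex), RAD18 (a ubiquitin ligase of DNA repair), CDC12 (a septin) and NBP1 (a spindle pole protein) had no signal above 53.8 on any of the 7 arrays. For NBP1 the signals were 31.4, 34.1 and 27.5 before the pulses and 13.8, 16.5, 23.9 and 20.8 after them, with a difference of -1.17 in pulse 2 and -0.30 in pulse 3. ARD1, the catalytic subunit of an N-terminal acetyltransferase, had 87.5, 103 and 72.3 against 61.6, 47.1, 59 and 56.1, a difference of -0.64 ± 0.17. YGR109W-B, a Ty3 retrotransposon gene, had 515, 718 and 434 against 305, 334, 395 and 359. Its probes may also bind transcripts of a near-identical copy, so that value is uncertain. Smaller differences came from ERG4, which encodes the last enzyme of ergosterol synthesis, and ARG4, the argininosuccinate lyase of arginine synthesis. Their differences were -0.36 ± 0.10 and -0.31 ± 0.08.

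**Figure D2:**
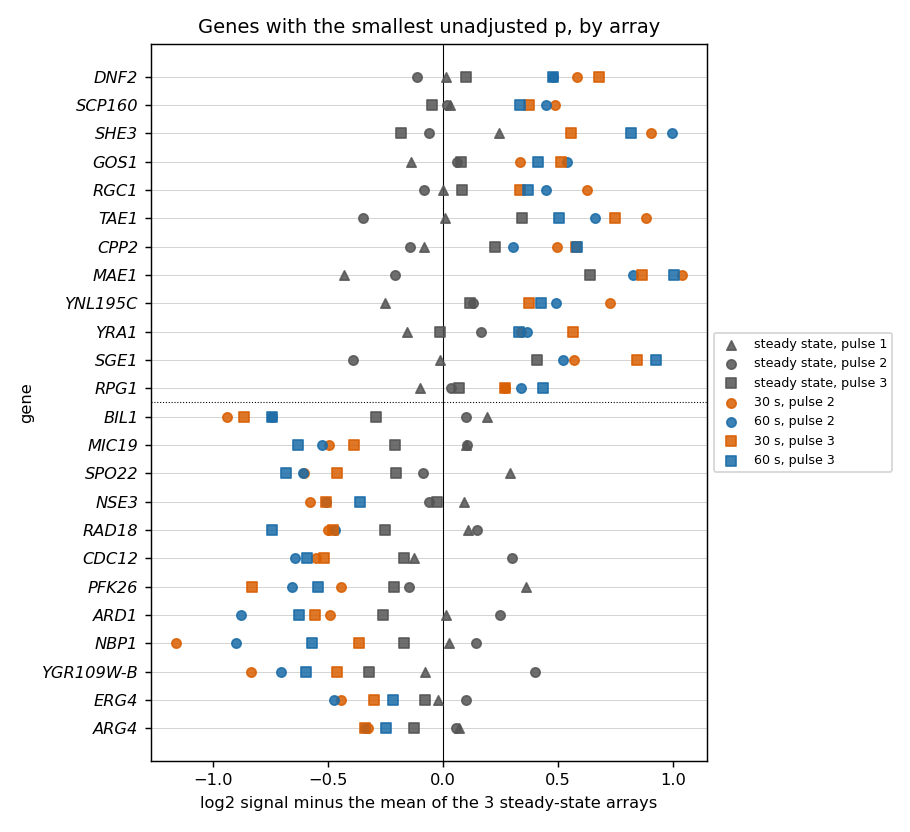
Log2 signal of each array minus the mean of the 3 steady-state arrays (x axis) for the 12 higher and 12 lower genes with the smallest unadjusted p (y axis). Grey marks are steady-state arrays and coloured marks first-minute arrays; the marks of pulse 3 at steady state (grey squares) lie nearest to the coloured marks in many genes, MAE1 and TAE1 among them.

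No gene of glucose uptake and sensing was called or separated the groups. Of 25 tested, 0 passed limma's adjusted threshold and 0 had non-overlapping groups. The list median lay 0.02 above the median of all genes, which was -0.05. HXT1, the low-affinity transporter gene that high glucose induces, had 23.2, 31 and 33 before the pulses and 26.2, 25.8, 28 and 25.5 in the first minute, a difference of -0.13 with an interval of -0.46 to 0.21 (limma, adjusted p = 0.791). HXT7, a high-affinity transporter of glucose-limited cells, lay at 3525, 2364 and 3090.3 before and at 2541, 2844, 3697 and 3489 after. Neither gene separated the groups. MTH1, a co-repressor of hexose transporter genes that glucose signals remove, had 205, 186 and 202 and then 230.2, 192, 208 and 239, with an interval of -0.11 to 0.38. The related co-repressor STD1 (-0.42 to 0.32), the hexokinase HXK2 (-0.27 to 0.20) and the repressor MIG1 (-0.35 to 0.29) likewise had intervals that spanned 0 within a 1.5-fold change. RGT1, the repressor with which Mth1 and Std1 work, had the largest value of the list, 0.46 ± 0.20, from 58.5, 86.1 and 90.9 to 124 and 119 in pulse 2 and 99 and 85.4 in pulse 3. Pulse 2 gave 0.50 and pulse 3 gave 0.02, and the arrays of pulses 2 and 3 alone gave 0.26. The rest of the pooled value came from the array before pulse 1, the lowest of all.

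Glycolysis and ethanol formation genes had a median above that of all genes. Of 20 tested, 17 had a value above 0, where the median of all genes was below 0, and 0 passed the adjusted threshold. The groups separated on the higher side in 2 of them (10%, beside 2.26% of all genes), CDC19 and PFK1. The list median was 0.17 above that of all genes, 0.22 in pulse 2 and 0.08 in pulse 3, and 0.02 when the arrays were quantile normalized instead of rescaled. Without the array before pulse 2 it was 0.10. CDC19, pyruvate kinase, had 1461, 1605 and 1876 before the pulses and 1892, 1946, 2135 and 2068 after, a difference of 0.29 ± 0.11 (limma, adjusted p = 0.623). Each first-minute array was above each steady-state array, the nearest pair by little. PFK1, a subunit of phosphofructokinase, differed by 0.11 ± 0.08, and PDC1, the main pyruvate decarboxylase, by 0.21 ± 0.14 with overlapping groups. All 20 members had an interval within a 2-fold change.

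No member of the gluconeogenesis, glyoxylate cycle and 2-carbon list was called. Of 24 tested, 17 had a value above 0, 0 passed and 1 had non-overlapping groups, on the lower side (4.17%, beside 4.36% of all genes). Its median lay 0.12 above that of all genes, 0.27 in pulse 2 and 0.05 in pulse 3, and turned to -0.01 without the array before pulse 2. PCK1, the first enzyme committed to gluconeogenesis, had 294, 193 and 194 before and 224, 245, 245 and 237 after, and FBP1, fructose-1,6-bisphosphatase, had 278, 275 and 371 and then 279, 339, 309.8 and 362. The groups overlapped in both genes, and the intervals were -0.27 to 0.45 for PCK1 and -0.25 to 0.40 for FBP1. ICL1, isocitrate lyase, had an interval of -0.27 to 0.41. The member with non-overlapping groups was CIT2, the peroxisomal citrate synthase, with a difference of -0.28 ± 0.10 (limma, adjusted p = 0.623), with -0.42 in pulse 2 and -0.08 in pulse 3.

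Of 18 tested TCA cycle genes, 14 had a value above 0, and their median lay 0.15 above that of all genes, 0.20 in pulse 2 and 0.08 in pulse 3. Without the array before pulse 2 it was 0.03. The list of the respiratory chain, ATP synthase and their activator (36 tested, 17 above 0) had a median 0.04 above all genes, which was -0.05 under quantile normalization. In both, 0 members passed, and the members with non-overlapping higher groups were SDH3 (a subunit of succinate dehydrogenase, 0.15 ± 0.10), CYC1 (cytochrome c, 0.19) and RIP1. These were 5.56% of each list, beside 2.26% of all genes. On the lower side, 2.78% of the respiratory list separated, beside 4.36% of all genes. HAP4, which encodes the glucose-repressed activator subunit of respiratory genes, had 467, 414 and 333 at steady state and 416, 382, 419 and 359 in the first minute. The groups overlapped, with an interval of -0.32 to 0.27. HAP2, a DNA-binding subunit of the same activator, was lower on all first-minute arrays (61.5, 51, 48.3 and 55.7 against 68.1, 81.8 and 63.2), a difference of -0.39 ± 0.15 (limma, adjusted p = 0.623). RIP1, the iron-sulfur protein of complex III, had 1512, 1382 and 1509 before and 1693, 1566, 1859 and 1784 after, a difference of 0.23 ± 0.10 that was 0.24 in pulse 2 and 0.27 in pulse 3.

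Ribosomal protein genes gave the largest list median. The 23 single-copy ribosomal protein genes had 20 members above 0, 0 with non-overlapping groups and 0 passing. Their median lay 0.19 above that of all genes, 0.33 in pulse 2 and 0.04 in pulse 3, and it was -0.02 under quantile normalization. It was 0.05 without the array before pulse 2 and 0.37 without the array before pulse 3. RPL39, with the largest difference, had 495, 941 and 1135 at steady state and 1169, 1122, 902 and 1031 after, so only the array before pulse 1 lay far below the others, beside a value of 0.38 ± 0.26. Ribosome biogenesis genes (55 tested) had a median of 0.07 relative to all genes. Without overlap were 1 higher and 1 lower member (1.82% each, beside 2.26% and 4.36% of all genes). NSR1, a nucleolar pre-rRNA processing factor, had 429, 559 and 485 and then 502, 494, 504 and 514, an interval of -0.19 to 0.28. UTP4, a subunit of the small-subunit processome, had 17.5, 21.8, 19 and 16.2 against 23.6, 33.1 and 25.3, a difference of -0.55 ± 0.16 (limma, adjusted p = 0.623), near the floor. NHP2, a protein of H/ACA snoRNPs, was the higher one, by 0.13 ± 0.09. In the RNA polymerase I and III list (31 tested, median -0.02 relative to all genes), RPC10, a small subunit that the polymerases share, differed by -0.30 ± 0.11 and RET1, the second largest subunit of polymerase III, by 0.27 ± 0.11. Purine and one-carbon genes (30 tested) lay 0.11 above all genes, 0.18 in pulse 2 and 0.07 in pulse 3, with 23 members above 0. The groups of 1 member did not overlap, on the higher side (3.33%, beside 2.26% of all genes). That member was GCV3, the H protein of the glycine cleavage system, with 1423, 1730.4 and 2238 before and 2255, 2452, 2329 and 2298 after. Its array before pulse 3 was already near the first-minute level (0.05 in pulse 3 against 0.44 in pulse 2). ADE17, an enzyme of the last steps of purine synthesis, had an interval of -0.43 to 0.51.

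No signalling, cell cycle or stress gene of the lists was called. Of 19 tested genes of the Ras, cAMP and protein kinase A pathway, 0 passed and 0 separated, and the largest value belonged to BCY1, the regulatory subunit of protein kinase A. BCY1 had 638, 663 and 932 at steady state and 927, 961, 994 and 1147 in the first minute, 0.45 ± 0.15 (limma, adjusted p = 0.623), with the array before pulse 3 inside the first-minute range. The list of G1 cyclins and start (13 tested, 8 above 0) had a median 0.15 above all genes, 0.12 in pulse 2 and -0.03 in pulse 3, and 0.07 and 0.05 without the array before pulse 1 or pulse 2. CLN3, the G1 cyclin that reports nutrient supply to the cell cycle, had 70.4, 137 and 116 before and 107, 125, 118 and 99 after, an interval of -0.41 to 0.62. General stress and heat shock genes (28 tested) had a median 0.06 above all genes (-0.01 without the array before pulse 2 and -0.06 under quantile normalization). The list had 1 member in each direction without overlap, the chaperone gene SSA1 (0.48 ± 0.22) and the thioredoxin gene TRX2 (-0.14 ± 0.08). Each was 3.57% of the list, beside 2.26% of all genes higher and 4.36% lower. HSP12, a membrane-associated stress protein, had 4567, 3044 and 4454 at steady state and 3872, 4189.9, 5002 and 4710.3 after. The trehalose and glycogen list (19 tested) had a median 0.01 above all genes and 1 separated member, on the lower side (5.26%, beside 4.36% of all genes). That member was PIG2, which encodes a subunit that targets a phosphatase to glycogen synthase, with a difference of -0.45 ± 0.17.

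Amino acid genes held the most separated members of any list by count, all lower, in one of the longer lists. By share they did not lead, since the galactose, sucrose and maltose list had 11.1% lower (1 of 9). Of 51 tested, 4 had non-overlapping lower groups (7.84%, beside 4.36% of all genes) and 0 passed. ARO3, which starts aromatic amino acid synthesis, had 107, 138 and 83 at steady state and 60.4, 65.7, 65.6 and 76.6 in the first minute, -0.68 ± 0.19 (limma, adjusted p = 0.623). Its difference was -1.13 in pulse 2 and -0.23 in pulse 3. The other 3 were ARG4, SER33 (-0.29), an enzyme of serine synthesis, and LYS4. LYS4, homoaconitase of lysine synthesis, followed with 227, 310.0 and 224 against 210.5, 186, 204 and 202, and -0.65 and -0.14 in the 2 pulses. Methionine and sulfur genes (31 tested) had MET8, an enzyme of siroheme synthesis, and MET6, methionine synthase (0.23), higher without overlap (6.45%, beside 2.26% of all genes). MET8 had 35.8, 33, 66.2 and 45 against 28.4, 32 and 29.1, and pulse 3 carried the difference (0.91 against 0.10 in pulse 2). MET28, a cofactor of the activator of sulfur genes, was the lower one, at -0.30 ± 0.11 (3.23% of the list, beside 4.36% of all genes). Among membrane and osmotic genes, PMA1, the plasma membrane proton pump, had an interval of -0.30 to 0.47. HRK1, a kinase that acts on that pump, was higher by 0.32 ± 0.15, and GPP2, a glycerol phosphatase, differed by -0.44 ± 0.15, more in pulse 3 (-0.63) than in pulse 2 (-0.39). In the other lists RPG1 of the translation factors separated on the higher side (29 tested, 3.45%, beside 2.26% of all genes). The lower ones, beside 4.36% of all genes, were PXA2 of fatty acid oxidation (15, 6.67%) and MAL33 of galactose, sucrose and maltose use (9, 11.1%). DAL1 and MEP1 of nitrogen catabolite repression (26, 7.69%) were also lower. There were none in the lists of G1 cyclins (13), mRNA decay (25) and phosphate (17). Over the 23 pathway lists, the median relative to all genes ran from -0.02 to 0.19 in the pooled comparison.

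**Figure D3:**
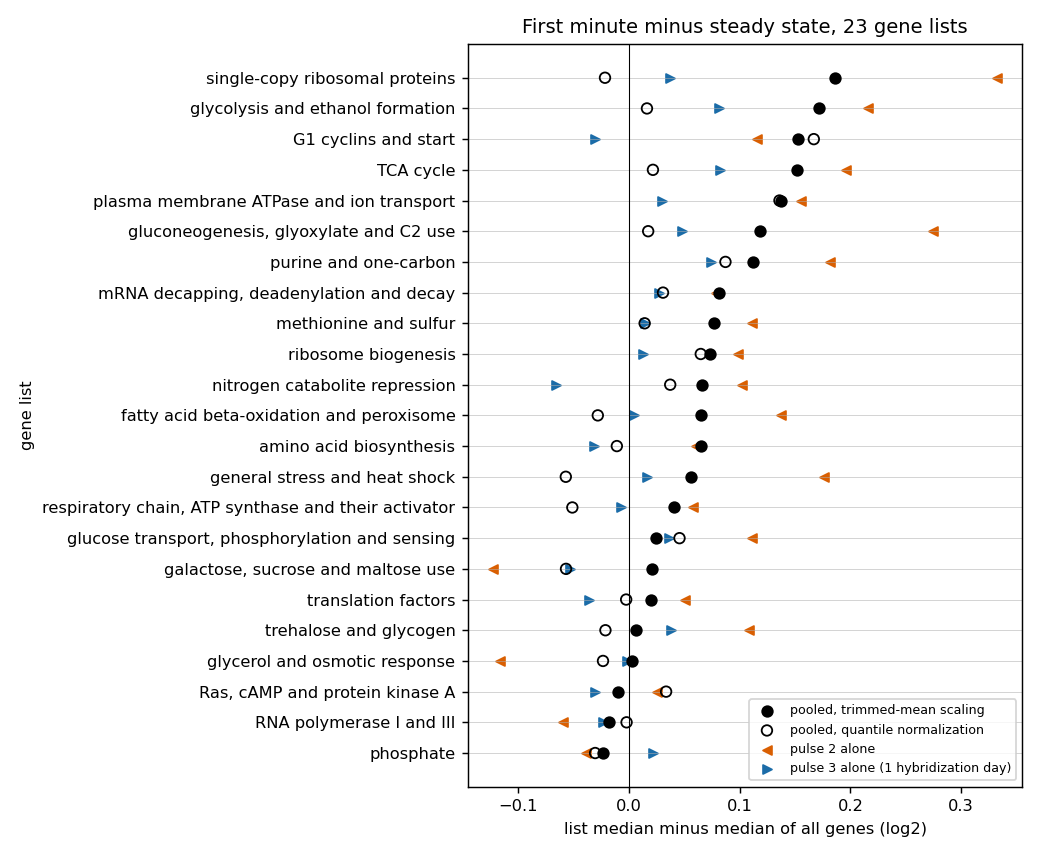
Median difference of each of 23 gene lists minus the median of all 5410 genes (x axis, log2) for the pooled comparison under trimmed-mean scaling (filled circles) and quantile normalization (open circles), and for each pulse alone (triangles). Pulse 3, whose arrays share 1 day, lies between -0.07 and 0.08 for every list, while pulse 2 reaches 0.33 for the ribosomal proteins.

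In the pooled comparison and in pulse 2, differences followed how bright the genes were. Split by mean signal into 5 bins of near-equal size from dim to bright, all tested genes had pooled medians of -0.16, -0.11, -0.07, -0.03 and 0.06. In pulse 2 the bins ran from -0.31 to 0.13. In pulse 3 they were -0.02, -0.04, -0.04, -0.03 and 0.03, without a steady rise from dim to bright. The part of this slope in the list medians was not tested beyond quantile normalization, which brought the glycolysis, TCA cycle and gluconeogenesis lists to 0.02 each. It left the G1 cyclin list at 0.17 (0.15 as rescaled) and the plasma membrane ATPase and ion transport list at 0.14 (0.14), which were -0.03 and 0.03 in pulse 3. The latter was 0.05 without the array before pulse 1 and 0.35 without the array before pulse 3.

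The 2 pulses, each compared with its own steady-state array, had little in common. Over 5410 genes the 2 sets of differences had a Pearson correlation of 0.0956 and a Spearman correlation of 0.134 across genes, and 54.4% of genes had the same sign. Genes are not independent replicates, and this is a description of 6 arrays. In pulse 2, 724 genes differed by 1.5-fold or more and 132 by 2-fold or more, against 135 and 18 in pulse 3, and the median absolute difference was 0.237 and 0.123. Of the 29 genes at 1.5-fold or more in both (4.01% of the pulse 2 genes and 21.5% of the pulse 3 genes), 13 went the same way, 4 higher and 9 lower.

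The 4 higher genes were SHE3, described above, HMS2, MEP3 and RAX1, named here after their values were seen. HMS2, a gene related to heat shock factors, had the largest pooled difference of all tested genes, 1.28 (limma, adjusted p = 0.623). Its signals were 12, 24.9 and 28.9 before pulses 1, 2 and 3, the first at the floor, and 47.6, 40.0, 64.6 and 50.2 in the first minute, so all 4 first-minute arrays lay above the steady-state arrays. It differed by 0.81 in pulse 2 and 0.98 in pulse 3. RAX1, which helps select bud sites, had 28.2, 25.7 and 37.7 before and 35.1, 50.1, 64.8 and 53.4 after, and MEP3, an ammonium permease, had 41.7, 15.3 and 20.5 before and 20.3, 27.5, 42.7 and 32.6 after. Steady-state signals lay among the first-minute signals in both genes, 1 in RAX1 and 2 in MEP3. The 9 lower genes were RTT105, YNL011C, DDL1, SRN2, PTP3, SUF10, YNCD0009W, YGL204C and CDA2. Most were dim, and in 3 of them (YNL011C, DDL1 and PTP3) the groups did not overlap. YNL011C had 34.7, 48.5 and 50.3 before and 33.7, 30.5, 31.9 and 27.7 after, and the phosphatase gene PTP3 had 21.7, 34.8 and 24 before and 17.9, 15.5, 12.8 and 19.6 after.

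**Figure D4:**
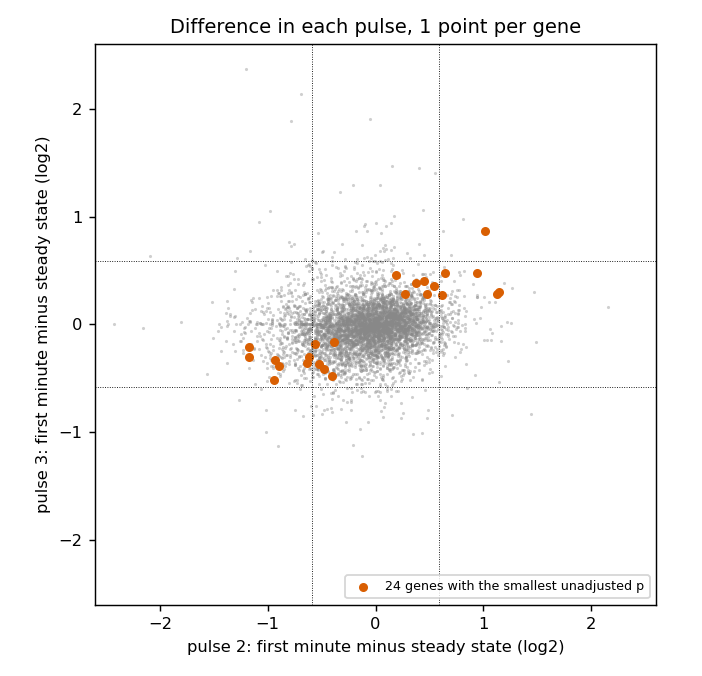
Mean of the 30 s and 60 s arrays minus the steady-state array of the same pulse, for pulse 2 (x axis) and pulse 3 (y axis), in log2 units, 1 point per gene; dotted lines mark 1.5-fold. The cloud is wider along pulse 2, and the 24 genes with the smallest unadjusted p (orange) lie where the signs match, as their selection requires of them.

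With the arrays of pulses 2 and 3 alone (2 against 4), limma again called 0 genes (0.00%), with a lowest adjusted p of 0.399 and 318 genes at an unadjusted p under 0.05. The interval lay within a 2-fold change for 90.7% of genes. That result rested on the array before pulse 3. Without it, the lone array before pulse 2 stood against the same 4 first-minute arrays, and 103 genes passed (1.90%), 18 higher and 85 lower, with a median absolute difference of 0.78 (lowest adjusted p = 0.000538 by limma, with the lone array assumed to vary like the others). In the within-day comparison of pulse 3, whose first-minute arrays also entered that fit, 44 of these genes lay on the called side. Their median difference toward the call was 0 over all of them, and 1 reached 1.5-fold. A gene at the floor on the pulse 3 arrays has a difference of 0 by construction, so this median does not show that signals stayed the same. With the array before pulse 1 as the reference for the same 4 first-minute arrays, 59 of these genes lay on the called side, with a median of 0.10. In the comparison of all 7 arrays, leaving out the array before pulse 3 gave 0 called genes, a lowest adjusted p of 0.107 and 1021 genes at an unadjusted p under 0.05. In DHH1, a helicase that promotes mRNA decapping, the sign of the difference turned with the reference array. It had 44, 44 and 119 before pulses 1, 2 and 3 and 89.1, 106, 89 and 75.6 in the first minute. Each pulse set against its own steady-state array gave a difference of 1.14 in pulse 2 and -0.53 in pulse 3.

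Between 30 s and 60 s no gene was found to change. Limma called 0 genes (0.00%), 85 had an unadjusted p under 0.05, and the lowest adjusted p was 1. With 2 arrays at each time, the interval lay within a 2-fold change for 88.2% of genes and within a 1.5-fold change for 37% only.

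The first minute was also read for 4 genes chosen because they stood apart at 120 s in earlier results of these data, so their 120 s signals are a description. MNC1 had 120.3, 133 and 127 before the pulses and 128, 146, 125 and 122 in the first minute, an interval of -0.22 to 0.29. Its signal at 120 s was 489, 381 and 355 in pulses 1, 2 and 3. ICY1 had 115, 117 and 109, then 123, 128, 104 and 104, and 218, 268 and 249 at 120 s. In both genes the first-minute signals overlapped the steady-state signals, and the 3 signals at 120 s lay above all 7 earlier ones. YMR206W had 609.5, 535 and 819.8 before, 712, 689, 732 and 841 in the first minute and 359, 316 and 307 at 120 s, where all 3 arrays were below all 7 earlier ones. CPP2 was the one of the 4 whose first-minute signals, 378, 331, 399.6 and 401, were already above the steady state (253, 243 and 313), by 0.49 ± 0.12 (limma, adjusted p = 0.623). At 120 s it had 556, 503 and 458, above all first-minute arrays.

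**Figure D5:**
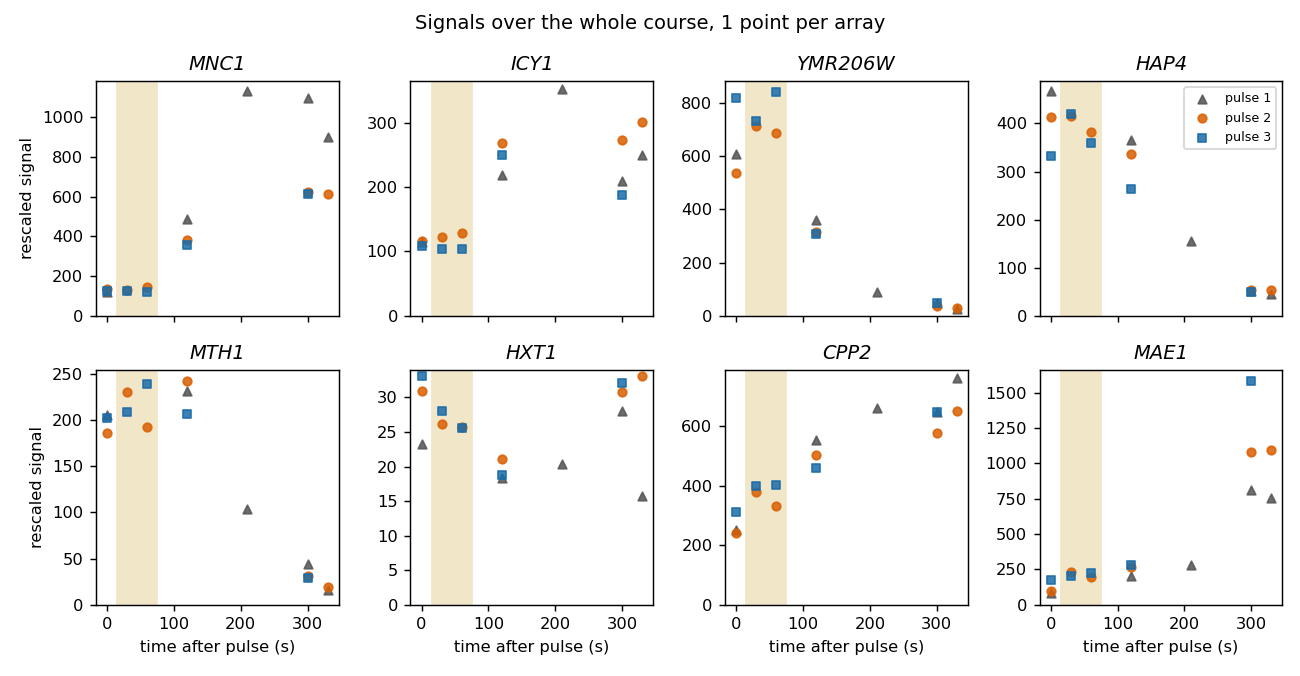
Rescaled signal (y axis, linear from 0) against time after the pulse in seconds (x axis) for 8 genes, 1 point per array, with the first minute shaded. MNC1, ICY1, YMR206W and HAP4 lie near their steady-state signals in the shaded minute and far from them by 300 s, while CPP2 and MAE1 lie above it within that minute; the 300 s array of pulse 1 is shown as labelled.

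Pulse 1, which had no first-minute array, served as a set of arrays that the first-minute contrast of pulses 2 and 3 did not use. For this, 12 higher and 12 lower genes were picked from pulses 2 and 3 alone and compared with pulse 1 at 120 s and 210 s, each against the array before pulse 1. That single array had another hybridization or scan day than the 120 s, 210 s and 300 s arrays of pulse 1. Day and time after the pulse therefore cannot be told apart in the pulse 1 differences. At 120 s, 9 of the 12 higher genes lay above the array before pulse 1 and 8 of the 12 lower genes below it, where 41.3% and 56.5% of all genes did. By 210 s the counts were 6 and 7, with 39.9% and 57.9% of all genes. At 300 s they were 6 and 3, with 43.5% and 55.4% of all genes, so fewer of the lower genes lay below than of all genes, but the experiment file of that array describes another sample than its label does, so these are the counts for the array as labelled. The genes far from steady state later in pulse 1 were read in the first minute of pulses 2 and 3, whose median over all genes was -0.04, with 42.1% of genes above 0. The 112 genes that were 2-fold or more higher at 210 s in pulse 1 had a first-minute median of -0.05 and the 174 lower ones a median of -0.03, with 39.3% and 43.1% above 0. The 36 genes higher at 120 s in pulse 1 had a first-minute median of 0.05, with 61.1% above 0, and the 87 lower ones a median of -0.11, with 28.7% above 0. For these 2 sets the medians were 0.20 and -0.24 in pulse 2 and 0.00 and -0.01 in pulse 3.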

How the data were processed

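Per the labels, total RNA was extracted from quenched chemostat samples, and biotin-labelled cRNA was hybridized to Affymetrix GeneChips. The authors deposited 1 linear intensity per probe set and array without a log; GCOS, the Affymetrix software, is named per the submitters' processing notes, and the sources used here give neither its version nor its settings. Each array's deposited intensity values were rescaled to a 2%-trimmed mean of 150, floored at 12 (8% of that mean) in place of a detection call, and put on a log2 scale. The platform annotation gave 1 gene for 6504 of 9335 probe sets, several for 328 and none for 2443, and 60 were controls. Each of 5656 genes, named through RefSeq's table for assembly R64 (names only), was represented by its brightest probe set on average. Leaving out 246 genes that were not above the floor on at least 2 arrays gave 5410 genes.

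Groups followed the time and pulse number in the array titles. The 7 arrays were fitted with limma 3.58.1 in R 4.3.3 (lmFit, eBayes with a variance trend; 5 residual and 3.07 prior degrees of freedom), with Benjamini-Hochberg adjustment over 5410 genes and a threshold of 0.05. Errors of differences are standard errors of this fit. The same fit was made with the arrays of pulses 2 and 3 alone, and 60 s was compared with 30 s in it with a time term. The script was tested on simulated signals. The number of arrays limits the precision. Replicates count as independent arrays, so p-values measure the spread between them. Members and gene lists (29 lists, 638 genes) were chosen with earlier results of these data known, and list counts and medians are descriptions without a test. Named genes were the 12 higher and 12 lower genes with the smallest p, no overlap between groups and all 7 arrays above the floor, up to 2 separated members per list with the largest difference (otherwise the 1 largest) and 20 fixed genes, 78 in all. Exceptions are named as such. Alternatives covered scaling, floor, filter, probe sets, variance model, blocks and arrays left out.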

Additional observations from a re-analysis of the deposited data

Results flagged for a closer look

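Among the 4 first-minute arrays of the 78 named genes, 6 genes had 1 array whose gap to the nearest of the others exceeded Dixon's 95% critical share of the range. Chance gives such a gap in about 5% of groups. In YRA1 the 30 s array of pulse 3 was high at 584.6, and in RET1 the 30 s array of pulse 2 was high at 407.6. At 60 s of pulse 3, PFK1 was high at 943.8 and ARG4 at 556.4, while RAD18 was low at 15.01, near the floor. In PIG2 the 30 s array of pulse 3 was low at 35.05. None of the 6 genes passed limma's adjusted threshold.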

How the results depend on the processing

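The pooled comparison gave 0 called genes by limma in its 32 alternatives, which covered scaling, floor, filter, probe sets, variance model, threshold, blocks and each array left out. Those that changed only the threshold were bound to give 0, since the lowest adjusted p of the main limma fit was 0.623. Across the alternatives the lowest adjusted p was 0.107, and genes at an unadjusted p under 0.05 ran from 123 with 1 mean per pulse to 1021 without the array before pulse 3. With pulse number as a replicate block the counts were 0 called and 454 at an unadjusted p under 0.05, and with only pulses 2 and 3 and that block they were 0 and 455. Same-numbered arrays deviated together weakly (r of 0.138, 0.273 and 0.0897 between 0 and 30 s, 0 and 60 s and 30 and 60 s), so the numbers were not taken to pair the arrays, and the block changed no call. With pulses 2 and 3 alone, leaving out 1 array gave 0 to 103 called genes, the 103 without the array before pulse 3, and the other alternatives gave 0. The comparison of 60 s with 30 s gave 0 in its 12 alternatives. With hybridization day as a fixed or as a random block 0 genes passed. The alternatives above include some added after seeing the data. Among these, all 7608 probe sets outside the controls gave 0 called (584 at an unadjusted p under 0.05, 7.68%). Another used the array before pulse 3 as the only reference. Of 78 named genes, 62 kept the sign of their difference in all 11 alternatives run per gene. Most named genes were picked for groups that do not overlap, which fixes the sign in the fits that leave out arrays. That count is therefore no support for them, and the 16 genes that changed sign were all fixed genes. Of the alternatives, the fit on pulses 2 and 3 alone and the fit without the array before pulse 1 are the same. The correlation of the 2 pulses ran from 0.0716 to 0.0961. Depth of signal limits dim genes: those near the floor of 12 have compressed differences, and the cause of each shift between settings was not tested.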

Other observations

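Probe sets outside the named genes were also read. The 1335 probe sets tested that carry no gene in the annotation gave 0 calls by limma and 123 at an unadjusted p under 0.05 (9.21%), with a median difference of -0.17. Against the mean of the first-minute arrays, 93 genes on the array before pulse 1, 156 on the array before pulse 2 and 15 on the array before pulse 3 differed by 2-fold or more. Of these, 28 were higher and 128 lower in the first minute than on the array before pulse 2, and 14 were higher and 1 lower than on the array before pulse 3.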
